A study of Mus musculus with 10 samples.

Results

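Matrix metalloproteinases and their tissue inhibitors were followed in mouse macrophages sorted by whether or not they had taken up apoptotic cells, a process called efferocytosis. The members were chosen by name as 10 genes of the 55414 gene identifiers in the count tables. They comprise the proteinase genes Mmp2, Mmp3, Mmp12, Mmp13, Mmp14 and Mmp19, the inhibitor genes Timp1, Timp2 and Timp3, and Adam8. RNA sequencing of polyadenylated RNA gave 10 libraries in 2 models. In the wound model, skin wounds of LysMCreER/mTmG mice were collected on day 3 and macrophages were sorted into efferocytic (Eff+) and non-efferocytic (Eff-) cells, with 3 libraries each. All 6 of these libraries came from mice given tamoxifen for 6 days. LysMCreER is a tamoxifen-inducible Cre recombinase driven from the lysozyme M locus, which is active in neutrophils as well as in monocytes and macrophages, and mTmG is a reporter that Cre switches from a membrane red to a membrane green fluorescent protein. In the culture model, bone marrow monocytes of Wild Type mice were grown with GM-CSF for 7 days. Per the labels they were exposed to apoptotic fibroblasts for 12 h and sorted into Eff+ and Eff- cells, with 2 libraries each. The culture Eff- columns carry the letters NOAC in their names, so whether those cells had met apoptotic fibroblasts is unclear. Whether libraries of a group came from separate mice or cultures is not in the labels. The p-values therefore reflect no more than the spread among these libraries. How much of that spread is technical was not tested, and Lyz2, given below, differed widely between wound libraries of the same group.

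Matrix metalloproteinases are zinc-dependent endopeptidases that are made as inactive proenzymes and, once activated, cut collagens, elastin, fibronectin and other matrix proteins. The TIMPs bind the active site of these enzymes, and TIMP2 also takes part in the activation of the MMP2 proenzyme by MMP14 at the cell surface. In skin wounds macrophages, neutrophils, fibroblasts and keratinocytes all make members of the family, and the balance of enzyme and inhibitor shapes how matrix is cleared and laid down. ADAM8 belongs to a related family of membrane-anchored metalloproteinases, which shed the outer parts of surface proteins.

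Some differences between libraries followed library number, as for Lyz2, and others followed the groups, as for the neutrophil markers in the wound. Lyz2, which lies at the lysozyme M locus and encodes that enzyme, was at 3417 CPM (read counts relative to scaled library totals) in wound Eff+ library 2 and at 6567 in wound Eff- library 2, and at 3.67 to 8.90 in the other 4 wound libraries. In culture, 35649 genes were detected in Eff+ library 1 and 44836 in Eff- library 1, against 19649 and 18171 in the libraries numbered 2. Total counts were 39735437 to 57308823 in the wound and 17622740 to 27261880 in culture. The macrophage markers (9 genes) all had counts in every library. Without Lyz2 their sum was 2694 to 2826 CPM in wound Eff+ and 4133 to 4516 in wound Eff- libraries, and 3 of the 9 fell. The 10 neutrophil markers summed to 18570 to 23500 CPM in wound Eff+ and 2310 to 4189 in wound Eff- libraries, and 9 of the 10 rose. The 12 fibroblast markers summed to 713 to 2468 CPM in wound Eff+ and 203 to 1167 in wound Eff- libraries, all 12 had positive log2 fold changes, and 1 rose. Of the 7 keratinocyte markers, 5 to 7 had counts in each wound Eff+ library and only 1 in each wound Eff- library. Each of these marker calls ended without wound Eff+ library 2. Of all 14908 genes tested in the wound, 7.39% rose and 3.79% fell. The 1 of 12 fibroblast markers that rose is close to that share, and the 9 of 10 neutrophil markers lie above it. In bulk samples, fewer cells of a type and less RNA per cell cannot be told apart.

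Members Mmp13, Mmp12 and Mmp3 lie in 1 run of metalloproteinase genes on chromosome 9, in the order Mmp13, Mmp12, Mmp1b, Mmp3, Mmp1a, Mmp10, Mmp8, Mmp27, Mmp20 and Mmp7. Stretches of 120 bases just before their starts, from RefSeq on GRCm38.p6, are shown because these neighbours include the members with the most and the fewest counts in culture. They were chosen after the values had been seen. Capitals mark TGANTCA, the letters of an AP-1 site, and TATAAA. The Mmp13 stretch is chr9:7272394-7272513, the Mmp12 stretch, before the second of its listed starts, is chr9:7347254-7347373, and the Mmp3 stretch is chr9:7445702-7445821, all on the plus strand and written 5′ to 3′.
Mmp13: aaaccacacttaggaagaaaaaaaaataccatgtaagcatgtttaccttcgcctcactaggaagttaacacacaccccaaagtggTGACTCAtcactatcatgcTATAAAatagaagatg
Mmp12: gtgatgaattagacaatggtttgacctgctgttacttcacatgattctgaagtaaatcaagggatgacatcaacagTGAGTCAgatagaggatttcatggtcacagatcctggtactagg
Mmp3: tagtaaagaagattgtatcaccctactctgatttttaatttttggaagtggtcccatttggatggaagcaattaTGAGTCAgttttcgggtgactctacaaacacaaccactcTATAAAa
TGANTCA lay 35 to 29 bases before the Mmp13 start, 44 to 38 before the second Mmp12 start and 46 to 40 before the Mmp3 start. The other Mmp12 start had no match in its window. Both strands were searched over the 250 bases before each start. TGANTCA was present in 3 of the 9 windows of 8 members (Mmp12, with 1 of its 2 windows, Mmp13 and Mmp3) and in 6.75% of all 32851 windows. TATAAA was present in 2 of the 9, those of Mmp13 and Mmp3, and in 12.37% of all windows. Mmp2 and Mmp19 had no window. A match describes the letters only, and its part in the levels was not tested. In culture Mmp12 was at 4373 to 11880 CPM, Mmp13 at 28.9 to 281 CPM, and Mmp3 near 0.

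The wound comparison asked how the family differed in the wound between efferocytic and non-efferocytic macrophages. No member passed the edgeR quasi-likelihood test at an adjusted p of 0.05 (0 of 10 tested; adjusted p from 0.052 for Adam8 to 0.83 for Timp1), where 1666 of 14908 genes did (11.2%, made up of 7.39% higher and 3.79% lower in Eff+). Of those calls 66.1% were higher in Eff+, against 21.2% with library totals as the only scaling. Adam8 was higher in every Eff+ library than in every Eff- library, and Mmp19 and Timp2 were lower in every Eff+ library. These 3 of 10 genes without overlap, 1 higher and 2 lower, stand beside 36.8% of all tested genes, 18.7% higher and 18.1% lower. The 10 members had 5 positive and 5 negative log2 fold changes, with a median of -0.15 against -0.03 for all tested genes. At an unadjusted p under 0.05 there were 5 members, namely Adam8, Mmp19, Timp2, Mmp14 and Mmp2, beside 29.9% of all genes. DESeq2 called 2 members (Adam8 and Mmp19) beside 23.9% of genes, and limma-voom called Adam8 beside 13.2%. With library number added to the edgeR fit as a block, 6 members were called beside 2985 of 14908 genes. No label says that the numbers pair the libraries.

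The culture comparison asked the same of macrophages grown from bone marrow. No member passed there either (0 of 9 tested, each with an adjusted p of 1.0 in edgeR's quasi-likelihood test), and no gene of 14867 did (0%). Mmp3 was too low to be tested. Mmp12 and Mmp13 were higher in both Eff+ libraries than in both Eff- libraries, which is 2 of 9 members beside 11.3% of all tested genes (20.7% in either direction). Along the same split, the 7 dendritic cell markers summed to 39.8 and 13.4 CPM in Eff+ and 483 and 190.9 in Eff- libraries. All 6 that were tested had negative log2 fold changes (median -3.29), 4 of them without overlap, and their part in the members' values was not tested. Of the 9 members 7 had positive log2 fold changes, with a median of 0.74 against -0.05 for all tested genes. At an unadjusted p under 0.05 there was 1 member, Mmp13, beside 0.774% of all genes. DESeq2 called 0 members and 2 genes (0.0135%), and limma-voom called 0 of either. With library number as a block, 2 members (Mmp13 and Timp1) were called beside 48 of 14867 genes.

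**Figure D1:**
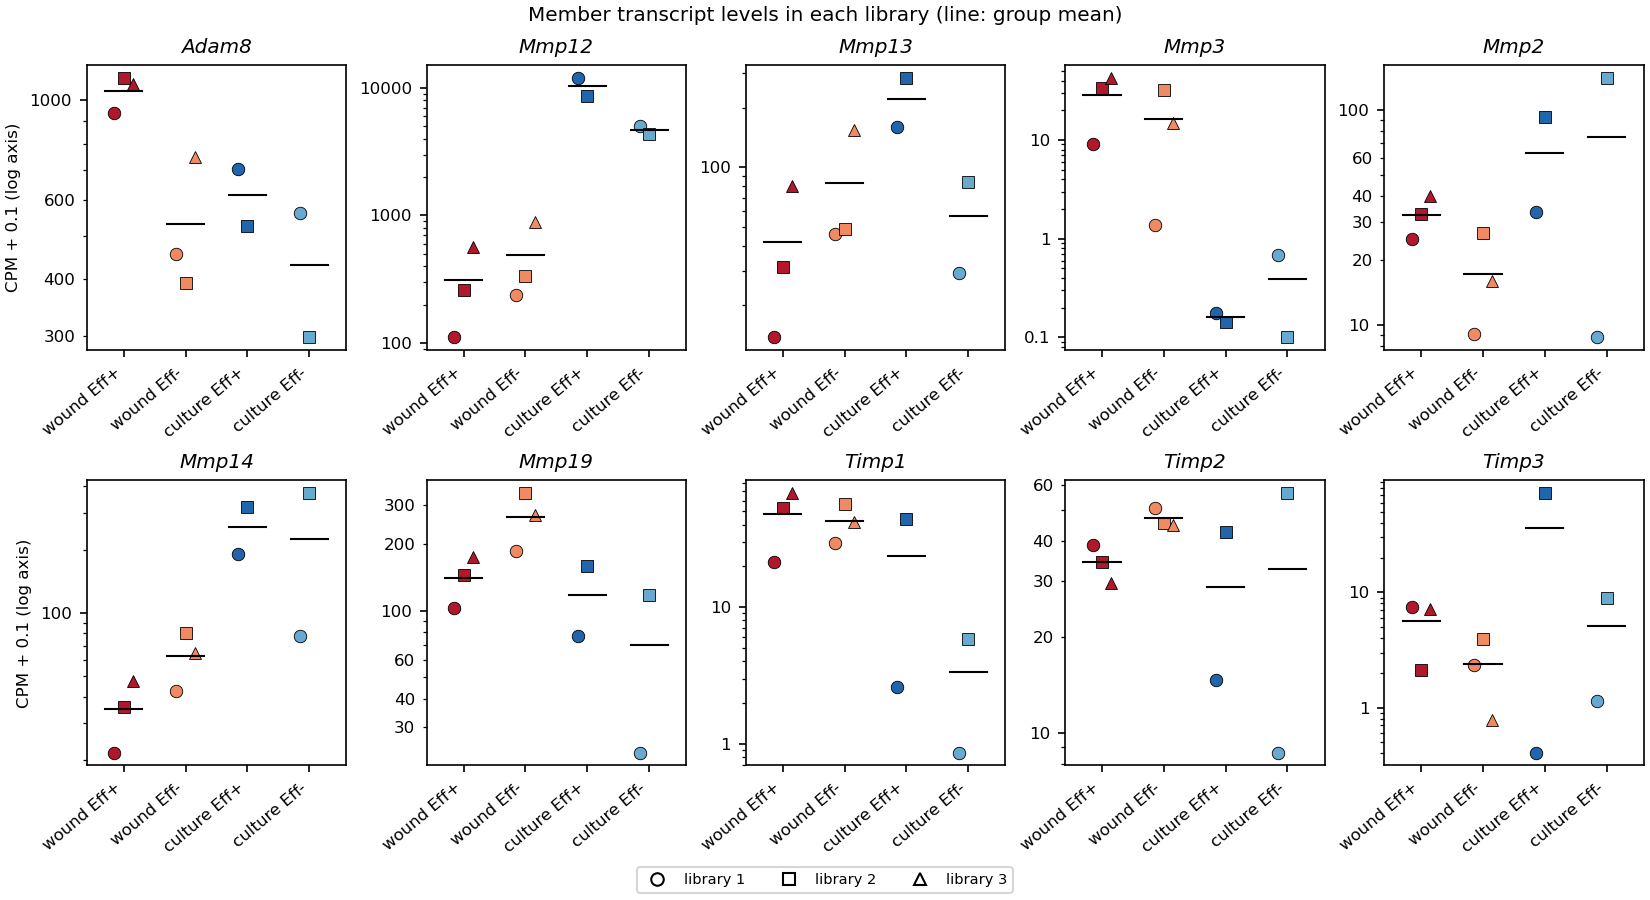
CPM plus 0.1 on a log axis for the 10 members in each of the 10 libraries, with a line at each group mean and 1 symbol per library number. Mmp12 stands at 4373 to 11880 CPM in culture against 111 to 890 in the wound, and Adam8 is the member with all 3 wound Eff+ libraries above all 3 wound Eff- libraries.

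Mmp12 (ENSMUSG00000049723, chromosome 9, 7344381 to 7369499 on GRCm39) encodes macrophage elastase, a secreted enzyme that cuts elastin and is made largely by macrophages. In the wound it was at 111, 261 and 563 CPM in Eff+ libraries 1, 2 and 3 and at 239.9, 335 and 890 in Eff- libraries 1, 2 and 3. The ranges overlapped, and library 3 was highest in both groups. The log2 fold change was -0.65 (SE 0.64, adjusted p = 0.54), and it was 0.10 without Eff- library 3. In culture Mmp12 was at 11880 and 8637 CPM in Eff+ libraries 1 and 2 and at 4981 and 4373 in Eff- libraries 1 and 2. Both Eff+ libraries lay above both Eff- libraries, with a log2 fold change of 1.13 (SE 0.84, 2.19-fold), which did not pass. Among all genes by CPM it ranked 6 and 11 for culture Eff+ and 5 and 22 for culture Eff-, against 157 to 1510 in the wound libraries. The 2 genes whose pattern over the 10 libraries was most like that of Mmp12, of 9302 with a mean of at least 5 CPM, were C77080 and Chpf2. Their root mean square differences in centred log2 CPM were 0.429 and 0.477, where the median gene was at 2.06. In the wound, however, C77080 was at only 0 to 1.38 CPM and Chpf2 at 0.678 to 4.82, close to the 0.5 added before logs were taken. The likeness lies largely in the step between the 2 separately counted models, and shared regulation was not tested.

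Mmp13 (ENSMUSG00000050578, chromosome 9, 7272514 to 7283331) encodes collagenase 3, which cuts fibrillar collagen. Its wound levels were 13.7, 31.1 and 80.2 CPM in Eff+ libraries and 45.7, 48.7 and 155 in Eff- libraries. The groups overlapped through Eff+ library 3, and the log2 fold change was -0.99 (SE 0.68, adjusted p = 0.38). Culture levels were 159 and 281 CPM in Eff+ and 28.9 and 84.1 in Eff- libraries. Both Eff+ libraries were above both Eff- libraries there, by a log2 fold change of 1.96 (SE 0.70, 3.90-fold, unadjusted p = 0.038). This was the smallest p of the members in culture, and its adjusted value was 1.0 in edgeR.

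Mmp3 (ENSMUSG00000043613, chromosome 9, 7445822 to 7455975) encodes stromelysin 1, which degrades proteoglycans and fibronectin and activates other proenzymes, and is made by fibroblasts. In the wound it was at 9.04, 33.9 and 42.2 CPM in Eff+ libraries and at 1.27, 32.2 and 14.9 in Eff- libraries. The ranges overlapped, and library 1 was lowest in both groups. The log2 fold change was 0.82 (SE 0.94, adjusted p = 0.61). In culture Mmp3 was nearly absent from the counts, with 2 and 1 reads for Eff+ and 13 and 0 for Eff-, where 3 counts, the limit that a count of 0 allows, come to 0.156 CPM in Eff- library 2. Among the members chosen here, the one with the most counts in culture, Mmp12, and the one with the fewest, Mmp3, lie in the same gene run on chromosome 9. Metalloproteinase genes outside this choice, such as Mmp7, had fewer culture counts than Mmp3.

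Mmp2 (ENSMUSG00000031740, chromosome 8, 93553919 to 93580048) encodes gelatinase A, which cuts denatured collagen and collagen of basement membranes. It was at 24.9, 32.7 and 39.9 CPM in wound Eff+ libraries and 9.02, 26.7 and 15.9 in Eff- libraries. Only Eff- library 2 reached into the Eff+ range. The log2 fold change was 0.92 (SE 0.38, adjusted p = 0.15). In culture Mmp2 was at 33.5 and 92.9 CPM in Eff+ and 8.66 and 141 in Eff- libraries. The 2 Eff- libraries lay outside the Eff+ range on both sides, with a log2 fold change of -0.24 (SE 1.27).

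Mmp14 (ENSMUSG00000000957, chromosome 14, 54669069 to 54682821) encodes a membrane-anchored collagenase that activates the MMP2 proenzyme. Wound levels were 21.6, 35.5 and 47.5 CPM in Eff+ and 42.3, 80.5 and 64.4 in Eff- libraries. The groups met at Eff+ library 3 and Eff- library 1. The log2 fold change was -0.84 (SE 0.33, adjusted p = 0.13). In culture it was at 191 and 319.5 CPM in Eff+ and 77.9 and 370.2 in Eff- libraries. The Eff- libraries again enclosed the Eff+ range (0.19, SE 0.84).

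Mmp19 (ENSMUSG00000025355, chromosome 10, 128626779 to 128636693) encodes a secreted enzyme that cuts components of basement membranes. It was at 102, 145 and 174 CPM in wound Eff+ and 186, 337 and 269.8 in wound Eff- libraries. All 3 Eff+ libraries lay below all 3 Eff- libraries, by a log2 fold change of -0.91 (SE 0.28). Its adjusted p was 0.071 in edgeR and 0.016 in DESeq2, and it ranged from 0.0116 to 0.422 over 15 alternative settings, 4 of which called it. Without both wound libraries numbered 2 the log2 fold change was -0.72 (SE 0.36). In culture Mmp19 was at 76.5 and 158 CPM in Eff+ and 22.9 and 117 in Eff- libraries, which overlapped (0.74, SE 0.88). Of its exon bases 28.3% also belong to the opposite-strand genes Gm47093 and Tmem198b. The wound counting command had no strand option, so reads on the shared bases cannot be assigned to one of these genes by strand. Levels per length, given below, divide by all exon bases, shared ones included.

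Among the inhibitors, Timp1 (ENSMUSG00000001131, chromosome X, 20736405 to 20740974), a secreted inhibitor made in response to inflammation, was at 21.4, 53.1 and 67.6 CPM in wound Eff+ and 29.1, 56.5 and 41.6 in wound Eff- libraries. The groups overlapped throughout, and the log2 fold change of 0.16 (SE 0.41) was -0.24 with library totals as the only scaling. In culture Timp1 was at 2.50 and 44.2 CPM in Eff+ and 0.763 and 5.71 in Eff- libraries. Eff+ library 2 stood above the other 3, and the fitted log2 fold change of 2.85 (SE 1.596) was -0.36 without it.

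Timp2 (ENSMUSG00000017466, chromosome 11, 118191895 to 118246566) encodes the inhibitor that also serves MMP2 activation. It was at 38.7, 34.4 and 29.5 CPM in wound Eff+ and 50.7, 45.6 and 44.8 in wound Eff- libraries. Every Eff+ library was below every Eff- library, by a log2 fold change of -0.46 (SE 0.16, adjusted p = 0.11). Culture levels were 14.6 and 42.7 CPM in Eff+ and 8.57 and 56.4 in Eff- libraries, with the Eff- libraries on both sides of the Eff+ range (-0.18, SE 1.01).

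Timp3 (ENSMUSG00000020044, chromosome 10, 86136236 to 86185370) encodes an inhibitor that is bound to the matrix and also blocks ADAM proteinases. It was at 7.42, 2.01 and 7.11 CPM in wound Eff+ and 2.25, 3.86 and 0.688 in wound Eff- libraries, the lowest member per length there. The groups overlapped at Eff+ library 2 (log2 fold change 1.28, SE 0.70, adjusted p = 0.26). In culture Eff+ libraries 1 and 2 held 8 and 1734 reads of it (0.308 and 72.0 CPM), and Eff- libraries 1 and 2 held 23 and 171 (1.03 and 8.88 CPM). The fitted culture value was 2.87 (SE 2.21), and it was -3.98 without Eff+ library 2. The exons of Timp3 share 21.3% of their bases with Syn3 on the opposite strand.

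The library highest in Timp1 and Timp3 in culture, Eff+ library 2, also had the highest fibroblast marker sum, 169 CPM against 8.89 in Eff+ library 1 and 21.6 and 34.9 in the Eff- libraries. Most of that sum was Col1a1 (104 CPM) and Col1a2 (42.2 CPM). The markers Col3a1 (5.69 CPM) and Dcn (2.41 CPM) and the matrix genes Sparc (50.7 CPM) and Tnc (17.8 CPM) were also highest in that library. Fn1 and Vcan were not, Thy1 and Fap were at 0 counts in it, and Pdgfra, at 1.33 CPM, was below both Eff- libraries (1.71 and 1.77). Of the 11 fibroblast markers tested in culture 5 had positive and 6 negative log2 fold changes, with a median of -0.03. These compare the groups and do not describe library 2 alone. Per the labels, fibroblasts were also the cells fed to the macrophages, and the part of fibroblast RNA in the Timp1 and Timp3 values was not tested. In the wound the fibroblast sum was lowest in Eff- library 1, which was also lowest in Mmp2 and Mmp3. It was highest in Eff+ library 3, which was highest in Mmp2, Mmp3 and Timp1. Other values did not follow the sum. Timp1 was lowest (21.4 CPM) and Timp3 highest (7.42 CPM) in Eff+ library 1. Mmp3 was lower in Eff+ library 1 than in Eff- library 3 (9.04 against 14.9 CPM), where the sums were 713 and 627 CPM. The part of fibroblast RNA in these values was not tested.

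Adam8 (ENSMUSG00000025473, chromosome 7, 139558845 to 139572475) encodes a sheddase of leukocytes, made by neutrophils and by macrophages. It was at 937, 1117 and 1084 CPM in wound Eff+ and 456, 392 and 747 in wound Eff- libraries. All 3 Eff+ libraries were higher than all 3 Eff- libraries. With library totals as the only scaling the groups nearly met, at 831 CPM in Eff+ library 1 and 819 in Eff- library 3. The log2 fold change was 0.98 (SE 0.26, 1.97-fold, unadjusted p = 0.0060, adjusted p = 0.052 in edgeR), just outside the threshold. Its adjusted p was 0.0031 in DESeq2 and ranged from there to 0.376 over 15 alternative settings, 6 of which called it. Over the same settings its log2 fold change ranged from 0.598 to 1.28. Without both wound libraries numbered 2 the log2 fold change was 0.75 (SE 0.33, adjusted p = 0.38). In culture Adam8 was at 704 and 524 CPM in Eff+ and 562 and 297 in Eff- libraries, which overlapped (0.51, SE 0.59). The neutrophil markers, which summed higher in all 3 wound Eff+ libraries, stood at 35.4 to 38.6 CPM in culture Eff+ and 69.7 to 135 in culture Eff- libraries, while Adam8 was within the span of its wound levels there except in Eff- library 2. Their part in the wound value was not tested.

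**Figure D2:**
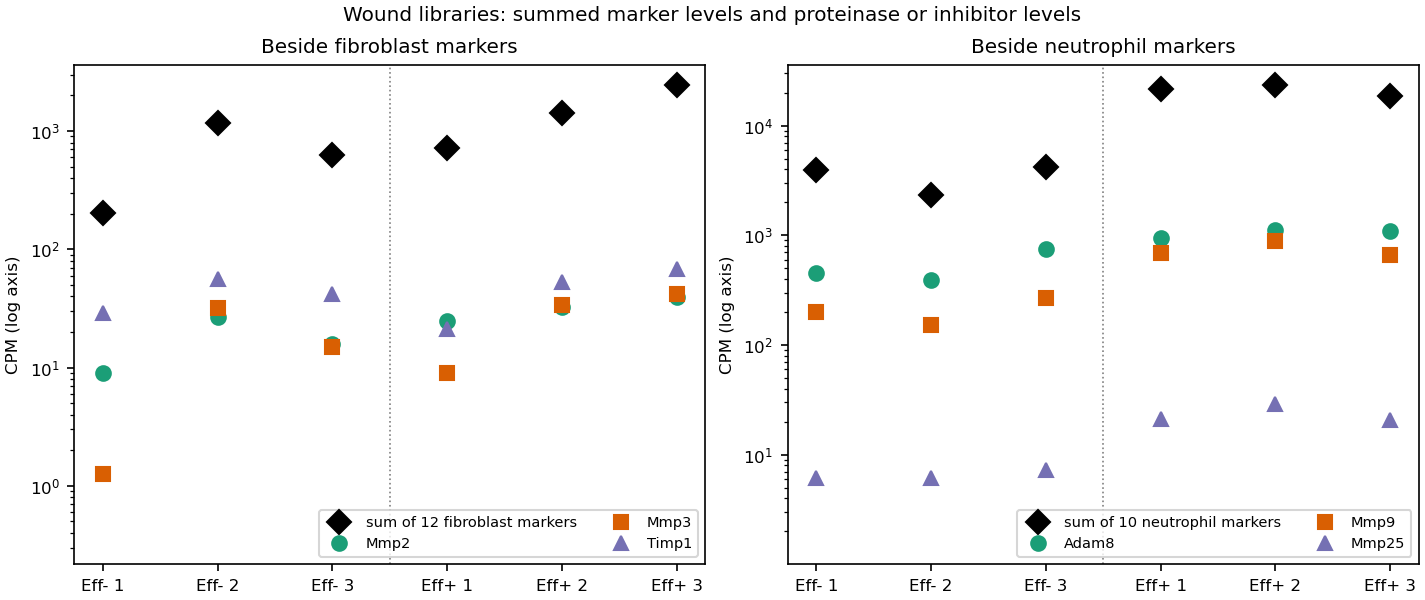
CPM on a log axis in the 6 wound libraries for the summed fibroblast markers (12 genes) beside Mmp2, Mmp3 and Timp1, and for the summed neutrophil markers (10 genes) beside Adam8, Mmp9 and Mmp25. The fibroblast sum runs from 203 CPM in Eff- 1 to 2468 in Eff+ 3, and the neutrophil sum is 18570 to 23500 in Eff+ against 2310 to 4189 in Eff-.

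Mmp12, Mmp13, Mmp14 and Mmp19 had negative values in the wound and positive values in culture. The difference between the models (wound Eff+ over Eff- minus the same in culture, from a fit over all 10 libraries) was -1.78 for Mmp12 (SE 0.96, unadjusted p = 0.092), -2.95 for Mmp13 (SE 1.08, unadjusted p = 0.019), -1.01 for Mmp14 (SE 0.82) and -1.63 for Mmp19 (SE 0.83). Leaving out 1 library turned the sign of Mmp12 in the wound, as given above, and of Mmp14 in culture (-0.21 without Eff+ library 2 and -0.50 without Eff- library 1). None of the 10 members passed (adjusted p from 0.36 for Mmp13 to 0.99 for Timp2 in edgeR), and no gene of 20270 did (0%). Of the members 3 had positive and 7 negative differences, with a median of -1.29 against 0.32 for all genes. At an unadjusted p under 0.05 there was 1 member, Mmp13, beside 11% of genes. DESeq2 called 0 members beside 5.87% of genes, while limma-voom called 0 genes. With library number as a block, 2 members (Mmp13 and Timp1) were called beside 441 of 20270 genes. Without both culture libraries numbered 1 the difference of Mmp13 was -2.75 (SE 1.37, adjusted p = 0.58). Macrophage markers without Lyz2 summed lower in all wound Eff+ than in all wound Eff- libraries. In culture their sums were 3407 and 5305 CPM in Eff+ and 1559 and 6157 in Eff- libraries. The part of macrophage content in the members' values was not tested.

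**Figure D3:**
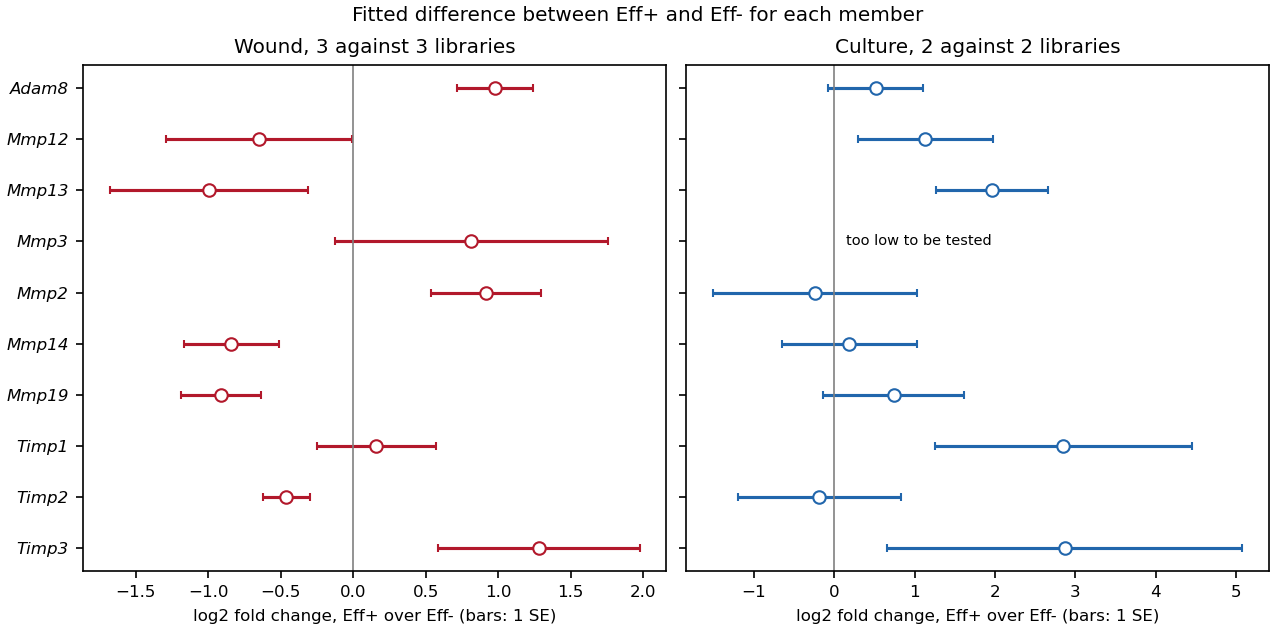
Fitted log2 fold change of Eff+ over Eff- for each member in the wound (3 against 3 libraries) and in culture (2 against 2), with bars of 1 SE. The wound values run from -0.99 (Mmp13) to 1.28 (Timp3) and the culture values from -0.24 (Mmp2) to 2.87 (Timp3), and none passed the test.

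Within culture, many members differed by library number. How many of all genes were split in this way was not counted, so it is not a trait shown for the members. Over all tested genes, deviations from the group mean correlated at 0.739 between same-numbered culture libraries. With 2 libraries per group the deviations are exact opposites, so this is a single value and not an agreement of 2 pairs. For 6 of the 10 members (Mmp2, Mmp14, Mmp19, Timp1, Timp2 and Timp3) both libraries numbered 2 lay above both numbered 1. For Adam8 and Mmp3 both libraries numbered 1 lay above both numbered 2, but Mmp3 had 13 reads at most and was not tested. Mmp12 and Mmp13 were separated by Eff+ and Eff- instead. Libraries numbered 1 were those with counts in far more genes, and the part of this in the members' values was not tested.

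Compared per length, as CPM per kilobase of exon (RPKM), Adam8 led in the wound, at 226 ± 20.6 RPKM in Eff+ and 115 ± 40.8 in Eff- (SD, n = 3 each). In wound Eff+ cells the next were Timp1 (53.3 ± 26.6), Mmp12 (43.1 ± 31.8) and Mmp19 (39.7 ± 10.2), whose ranges overlapped from one to the next. Mmp3, Mmp13, Mmp2, Timp2 and Mmp14 followed at 15.8 to 5.85 with overlapping neighbours, and Timp3 was apart at 0.677 ± 0.373. In wound Eff- cells Mmp19 (74.7 ± 21.5) and Mmp12 (67.5 ± 48.6) came after Adam8, and both their ranges reached into that of the gene above. In culture Mmp12 led by a wide margin, at 1418 ± 317 RPKM in Eff+ and 646 ± 59.4 in Eff- (SD, n = 2 each), followed by Adam8 at 132 ± 27.5 and 92.7 ± 40.4. In culture Eff+ cells Mmp13 came next, at 82.4 ± 32.3, without overlap with its neighbours. The other members overlapped with the next in order in both culture groups. All members together took 0.114 to 0.246% of counts in the wound libraries and 0.458 to 1.37% in culture, most of it Mmp12. Levels of the 2 models come from separately counted tables and were not tested against each other.

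Some genes of 4 related lists passed the test in the wound, where 11.2% of all tested genes passed (7.39% higher and 3.79% lower in Eff+). The median log2 fold change of all tested genes there was -0.03. Of 18 further metalloproteinase and TIMP genes 8 were tested, 2 rose and none fell, with a median log2 fold change of 1.12. Mmp9, which encodes gelatinase B, a granule enzyme of neutrophils, rose from 198, 152 and 269 CPM in Eff- to 683, 886 and 656 in Eff+ libraries (log2 fold change 1.85, SE 0.25, adjusted p = 0.0098 in edgeR). Mmp25, which encodes a membrane-anchored enzyme of leukocytes, rose by 1.87 on the log2 scale (SE 0.22), with 20.8 to 29.2 CPM in Eff+ against 6.06 to 7.30 in Eff- libraries. Mmp8, neutrophil collagenase, had the highest mean RPKM of this list over the libraries of each model, although Mmp9 was above it in wound Eff+ cells (209.6 ± 35.5 against 202 ± 21.2 RPKM, SD, n = 3 each, with overlapping ranges). The neutrophil markers moved with these genes in the wound, and their part was not tested.

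Of 17 further ADAM and ADAMTS genes 15 were tested, and Adam19 rose (1.41, SE 0.34) while Adam10, a widely expressed sheddase, fell by 0.63 (SE 0.16), with a median of 0.78. Adam9 had the highest mean RPKM of this list in wound Eff- cells and over all wound libraries (40.1 ± 4.87 in Eff- and 24.9 ± 5.56 in Eff+, SD, n = 3 each), Adam17 was highest in wound Eff+ cells (33.6 ± 7.30), and Adam10 was highest in culture. Of 15 activators, docking proteins and inhibitors 13 were tested. Plaur, the urokinase receptor gene that focuses plasmin formation at the cell surface, rose by 0.95 (SE 0.20) and led the list per length in both models. Lrp1, the endocytic receptor that clears metalloproteinases and TIMPs, fell by 0.97 (SE 0.26), and the median of the list was 0.62. All 14 matrix substrate genes were tested, with a median of 1.03, and 1 passed. Vcan, which encodes the proteoglycan versican, fell by 0.97 (SE 0.20). Spp1, osteopontin, was the substrate of highest level per length in both models, at 6580 to 9953 CPM in wound Eff+ and 3453 to 6664 in wound Eff- libraries. In culture no gene of these 4 lists passed, and no gene at all did. The list medians there were -0.25, 0.17, 0.45 and 0.99 in the order given, against -0.05 for all tested genes. Of the 6 libraries left out in turn, only Eff+ library 2 ended the calls of Mmp9 and Mmp25. The calls of the other 5 genes were each lost in 5 of the 6 cases. Adam10 kept its call only without Eff+ library 1, Adam19 only without Eff- library 3, and Plaur, Lrp1 and Vcan only without Eff+ library 3. Over all 15 alternative settings Mmp9 and Mmp25 passed in 13, Vcan in 9, Adam19 and Plaur in 8 and Adam10 and Lrp1 in 7. Without Eff+ library 2, edgeR called 0 genes of all kinds although 3260 had an unadjusted p below 0.05. The calls also ended when wound libraries 2 of both groups were left out, with 0 called and 2212 at that unadjusted p. Their log2 fold changes without both were 1.52 for Mmp9, 1.65 for Mmp25, 1.39 for Adam19, -0.62 for Adam10, 0.87 for Plaur, -0.91 for Lrp1 and -1.01 for Vcan.

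**Figure D4:**
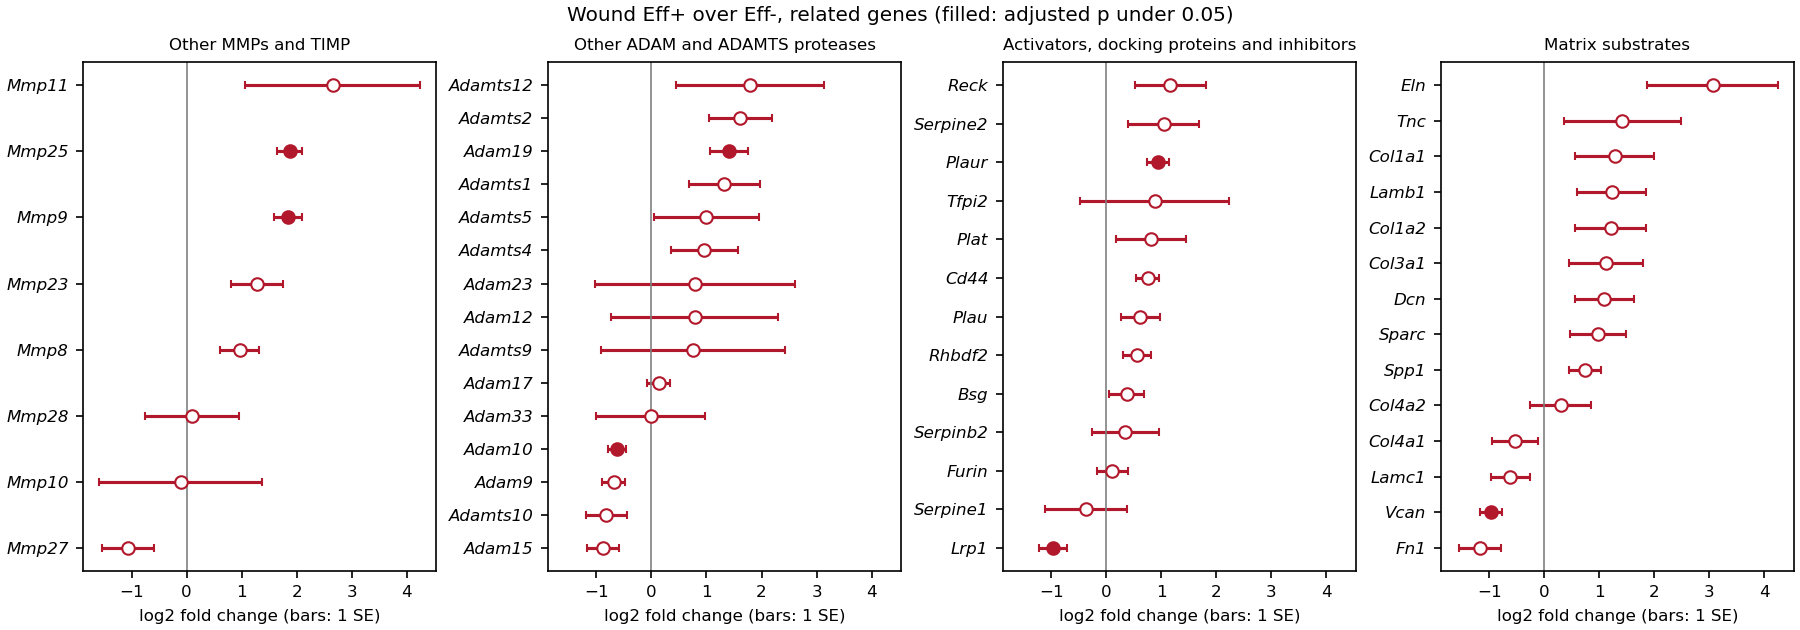
Log2 fold changes of wound Eff+ over Eff- with bars of 1 SE for the tested genes of the 4 related lists, with filled points for an adjusted p under 0.05. The filled points are Mmp25, Mmp9, Adam19 and Plaur on the higher side and Adam10, Lrp1 and Vcan on the lower side.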

How the data were processed

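The authors deposited whole-number read counts for each gene and library, with no normalization. Wound reads were counted by the authors with featureCounts 1.6.0 against Ensembl release 106 on GRCm39, per the file headers, with no strand or read-pair option, and 70.6 to 74.6% of wound counts from 1 to 100 were even, against 40.5 to 45.4% in culture. For culture, neither the counting command nor its strand setting is given in the sources used here, nor is the aligner for either model. Trimmomatic 0.39 is named in the submitters' processing notes. Gene lengths used for RPKM are those deposited in the wound table, per the file headers. Another 4 culture columns matched no sample and were not used. Symbols were found for 52081 of 55414 identifiers, holding 99.91% of counts, and coordinates are those of the wound annotation.

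Each model was fitted alone in R 4.3.3 with edgeR 4.0.16 (trimmed mean of M-values scaling, filterByExpr, quasi-likelihood test, no covariate, Benjamini-Hochberg adjustment over all tested genes, threshold 0.05). "Rose" and "fell" mean that a gene passed. Standard errors (SE) were taken as the size of the log2 fold change over the root of its F statistic. One fit of all 10 libraries gave the difference between models. Alternatives used other scalings and filters, DESeq2 1.42.0, limma-voom (limma 3.58.1), a replicate block and libraries left out. Floors cover counting error only. The members and gene lists were chosen with earlier results of these data known. All 10 members are named, and of each related list up to 4 called genes per direction in the wound and the gene of highest mean RPKM over the libraries of each model. With no member called in the wound, the member of highest mean RPKM over the 10 libraries, Mmp12, was used to find genes of like pattern, by the root mean square difference of log2(CPM + 0.5) after centring.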

Additional observations from a re-analysis of the deposited data

How the results depend on the processing

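With 1 library left out, 56 of 60 member values in the wound, 28 of 36 in culture and 88 of 100 for the difference kept their direction and side of the threshold, and under other alternatives 74 of 90, 66 of 72 and 93 of 100 did. Of the calls of the 7 named related genes 27 of 42 were lost with 1 library left out and 13 of 63 under other alternatives. Counts of called genes in the wound (1666 of 14908) became 3368 of 14908 with library totals only and 3150 of 13164 with DESeq2. They became 0 without both wound libraries numbered 2 and 0 to 1347 with 1 library left out. Upper quartile scaling called 1671 of 14908 genes, no filter 1826 of 25925 and limma-voom 1967 of 14908. Called members (0) became 3 with library totals only (Mmp14, Mmp19 and Timp2, where the median of all genes moved from -0.03 to -0.42, in culture from -0.05 to -0.17 and for the difference from 0.32 to 0.08), 1 with upper quartile scaling (Adam8), 2 with no filter and with DESeq2 (Mmp19 and Adam8), 1 with limma-voom (Adam8) and 0 to 1 with 1 library left out. In culture 2 genes were called with no filter and with DESeq2 and 0 to 27 with 1 library left out, and 0 members in each. The difference between models gave 517 genes and 2 members (Mmp13 and Timp1) with no filter, 797 genes with DESeq2, 7 without both culture libraries numbered 1 (chosen after seeing the data), and 0 to 2009 genes and 0 to 5 members with 1 library left out. No label says whether replicate numbers pair the samples, which is unknown, and the wound correlations were not all above the 0.1 set for pairing. Deviations of same-numbered wound libraries correlated at 0.41, 0.017 and 0.234, and wound Eff+ library 2 correlated best with Eff- library 3, at 0.152. In culture the correlation was 0.739, a single value because 2 libraries per group have opposite deviations. The 517 genes called for the difference with no filter stand beside 47493 tested. With the replicate block 2985 of 14908 genes and 6 members (Mmp2, Mmp12, Mmp13, Mmp14, Mmp19 and Adam8) were called in the wound. In culture it called 48 of 14867 genes and 2 members (Mmp13 and Timp1). For the difference it called 441 of 20270 genes and the same 2 members. Under that block the culture values of Mmp2 and Timp2 were 0.658 and 0.171 and the difference of Timp3 was 0.277. With limma-voom these 3 were 0.697, 0.202 and 0.676. The wound value of Timp1 was -0.235 with library totals only, and the difference of Mmp3 was -2.61 without both culture libraries numbered 1. With 1 library left out, signs turned within these ranges: in the wound Timp1 (-0.187 to 0.51) and Mmp12 (-1.393 to 0.101); in culture Mmp2 (-1.164 to 3.166), Mmp14 (-0.502 to 2.008), Timp1 (-0.362 to 5.229), Timp2 (-1.147 to 2.038) and Timp3 (-3.981 to 5.43); and in the difference Mmp2 (-1.982 to 2.074), Mmp3 (-3.067 to 4.069), Timp1 (-4.801 to 0.514), Timp2 (-2.227 to 0.701), Timp3 (-3.876 to 5.267) and Adam8 (-0.084 to 0.814). The cause was not tested, and a lone culture library was assumed to vary like the other groups. Mmp3 had 13 counts at most in culture, in the library of lowest total (Eff- library 1, 17622740 counts), and was too low to be tested there.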
